A study of Mus musculus with 2 samples.

Results

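Expression of 10 genes of Wnt signalling was followed across nucleus groups of the aorta, sampled at its ascending part and arch in mice. They are the ligands Wnt2 and Wnt5a, the receptors Ror1 and Ror2, the secreted modulators Rspo3, Sfrp1 and Dkk2, the intracellular modulator Dact2, the nuclear factor Tcf7l2 and the target gene Axin2. The members were chosen by symbol, and all 10 of 10 were found among the 54754 features of both count matrices. The data came from single-nucleus RNA sequencing in droplets, in which unique molecular identifiers (UMIs) are counted per gene and nucleus. All animals, of either sex, were Wnt1-Cre; Rosa26-mTmG. Wnt1-Cre is a driver that acts in neural crest cells of the embryo, and Rosa26-mTmG switches a cell and its progeny from tdTomato to GFP once Cre has acted. Tissue of several animals went into each pool, with 1 Female library and 1 Male library, and the labels give no age and no treatment. The labels say that each pool was split into technical replicates, which the barcodes do not show, so no value per split was computed.

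Wnt proteins are secreted lipid-modified signals. In the canonical branch they act through Frizzled receptors and LRP co-receptors to stabilise beta-catenin, which turns on target genes with factors of the TCF/LEF family, while in the non-canonical branch ligands such as Wnt5a act through ROR receptor tyrosine kinases on cell shape and movement. In the arterial wall the pathway is known from work on smooth muscle growth, endothelial barrier function and the fate of adventitial fibroblasts.

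Nuclei with at least 300 genes were grouped by the largest summed UMI count, of 3 or more, over marker genes of 4 classes. Smooth muscle was taken from Myh11, Acta2 and Lmod1, endothelium from Ptprb, Flt1 and Pecam1, fibroblasts from Pdgfra, Dcn and Scara5, and fat from Adipoq, Plin1 and Plin4. Muscle nuclei with at least 3 UMIs of Lrrtm3, Lrrc7 and Adamtsl1 were kept apart as Lrrtm3 muscle, and fibroblast nuclei with at least 2 UMIs of Pi16, Pla1a and Adamts16 as Pi16 fibroblasts. The rule placed 17032 of 18863 Female nuclei (90.3%) and 18355 of 20653 Male nuclei (88.9%) into 6 groups. These groups were Lrrtm3 muscle (883 Female and 659 Male nuclei), Pi16 fibroblast (1463 and 1727), endothelium (5197 and 6803), fat (1478 and 1343), other fibroblast (725 and 754) and other muscle (7286 and 7069). Median depth per nucleus was 2952 to 3868 UMIs in the muscle, fibroblast and endothelium groups and 6877 (Female) and 7028 (Male) in fat. Levels are given as CPM, a gene's UMIs scaled to the same total of UMIs for each group and library, and are compared within a gene and never between genes. Shares of nuclei carry exact 95% binomial intervals where given, and all intervals cover counting error only.

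Markers that the rule had not used followed the group names in part. The 5 other smooth muscle markers (Tagln, Cnn1, Mylk, Smtn and Myocd) summed to 4042 to 5658 CPM in the muscle groups and to at most 398 CPM in the other groups, and 5 other endothelial markers to 1931 (Female) and 1820 (Male) CPM in endothelium and at most 309 CPM elsewhere. Collagen-type fibroblast markers summed to 2015 to 2139 CPM in the fibroblast groups, but also to 921 to 1158 CPM in the muscle groups and 714 to 768 CPM in endothelium. Other fat markers reached 10577 and 11289 CPM in fat and at most 444 CPM elsewhere, and 1226 of 1478 Female and 961 of 1343 Male fat nuclei had at least 2 UMIs of the brown fat genes Ucp1 and Cidea. Mesothelium markers (Msln, Upk3b, Wt1 and Krt19) summed to 13.6 (Female) and 33.0 (Male) CPM in Pi16 fibroblasts, against 411 and 802 CPM in other fibroblasts, and to 77.9 and 198 CPM in Lrrtm3 muscle, against 7.66 and 15.5 CPM in other muscle. The fibroblast markers of the rule stood at 256 and 414 CPM in Lrrtm3 muscle, against 56.4 and 78.2 CPM in other muscle. The genes that split off Lrrtm3 muscle (Lrrtm3, Lrrc7 and Adamtsl1) were not particular to muscle. They summed to 979 (Female) and 817 (Male) CPM in Pi16 fibroblasts and 879 and 760 CPM in other fibroblasts, against 36.1 and 36.1 CPM in other muscle. Between 14.97% and 29.4% of the nuclei of a group held at least 3 marker UMIs of a second class. Nuclei outside the 6 groups with at least 3 UMIs of Ptprc, Dock2 and Mrc1 (584 Female, 777 Male, median 2100.5 and 2367 UMIs) are called immune nuclei here. They served as a measure of free RNA. Being ungrouped, they had under 3 UMIs of every marker class or a tie, so they can understate the free RNA inside the groups. Whether they express members themselves, which would overstate it, was not tested. Of them 0.685% (Female) and 0% (Male) held at least 3 marker UMIs of a second class. The libraries shared 4287 barcode sequences.

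The sequences around the start of 5 of the genes are shown because results below turn on these genes. They are the ROR pair, whose levels ran in different orders, and Dact2 and Dkk2, which were concentrated in a few groups. Axin2 is shown as a textbook target of TCF/LEF factors. Each window holds 250 bases before and 50 bases after the gene's start on the gene's own strand, from RefSeq on GRCm38.p6, and 7 of the 10 members matched the table. The Dact2 window lies wholly inside the gene span that GENCODE gives below, so its start in RefSeq is not that in GENCODE. Capitals mark GC boxes (GGGCGG on either strand) and TATA boxes (TATAAA on the gene's strand). The windows are chr4:100095541-100095840 (plus strand) for Ror1, chr13:53286075-53286374 (minus) for Ror2, chr17:14203782-14204081 (minus) for Dact2, chr3:132085042-132085341 (plus) for Dkk2 and chr11:108920099-108920398 (plus) for Axin2.
Ror1: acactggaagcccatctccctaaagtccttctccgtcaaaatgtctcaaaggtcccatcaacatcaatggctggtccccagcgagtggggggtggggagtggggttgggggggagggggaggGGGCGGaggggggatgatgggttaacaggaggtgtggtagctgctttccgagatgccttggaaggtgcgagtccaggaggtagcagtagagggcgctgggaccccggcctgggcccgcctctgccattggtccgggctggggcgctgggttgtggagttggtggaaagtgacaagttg
Ror2: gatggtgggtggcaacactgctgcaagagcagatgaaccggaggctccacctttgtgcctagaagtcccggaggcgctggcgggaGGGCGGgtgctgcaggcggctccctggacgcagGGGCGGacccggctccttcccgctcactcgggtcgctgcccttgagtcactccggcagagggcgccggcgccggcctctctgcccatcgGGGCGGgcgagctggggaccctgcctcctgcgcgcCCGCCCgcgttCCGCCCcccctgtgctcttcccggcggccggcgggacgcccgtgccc
Dact2: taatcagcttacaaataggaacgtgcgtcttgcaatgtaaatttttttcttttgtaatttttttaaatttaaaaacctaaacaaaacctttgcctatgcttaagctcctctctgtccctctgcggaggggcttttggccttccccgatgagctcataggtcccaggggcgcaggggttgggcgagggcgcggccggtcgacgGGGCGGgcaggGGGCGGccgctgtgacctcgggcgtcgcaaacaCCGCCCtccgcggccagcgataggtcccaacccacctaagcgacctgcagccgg
Dkk2: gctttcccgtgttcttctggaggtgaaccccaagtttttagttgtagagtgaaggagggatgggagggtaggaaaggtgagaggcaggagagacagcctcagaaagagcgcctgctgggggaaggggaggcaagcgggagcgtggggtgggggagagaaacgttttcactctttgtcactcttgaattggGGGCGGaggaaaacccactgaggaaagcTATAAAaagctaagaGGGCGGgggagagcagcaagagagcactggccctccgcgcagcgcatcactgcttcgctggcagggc
Axin2: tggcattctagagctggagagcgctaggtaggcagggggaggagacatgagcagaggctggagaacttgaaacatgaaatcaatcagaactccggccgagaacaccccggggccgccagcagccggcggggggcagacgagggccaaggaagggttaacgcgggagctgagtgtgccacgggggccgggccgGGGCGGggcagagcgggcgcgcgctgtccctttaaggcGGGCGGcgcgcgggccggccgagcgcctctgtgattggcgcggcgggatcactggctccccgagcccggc

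A GC box was found in all 7 matched members (Wnt2, Ror1, Ror2, Dact2, Dkk2, Tcf7l2 in 1 of its 2 windows, and Axin2), against 35.7% of all 32851 promoter windows of the same length. The ROR genes differed in these letters, with 1 GC box for Ror1 and 5 for Ror2, and in the share of G and C, which was 62.3% for Ror1 and 74.7% for Ror2. Only the Dkk2 window among these 7 genes held a TATA box, whose first base lay 32 bases before the start (position -32), against 8.32% of all windows. The TCF/LEF letters CTTTGAT or CTTTGAA, searched on both strands, were in 8.65% of all windows and in none of the members' windows, the one of Axin2 included. A match describes letters in these windows only.

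The genes lie on 10 different chromosomes of GRCm38. Their spans in GENCODE are chr6:17988940-18030585 for Wnt2, chr14:28504750-28527448 for Wnt5a, chr4:100095791-100444765 for Ror1, chr13:53109312-53286124 for Ror2 and chr17:14195052-14204304 for Dact2. Those of the others are chr8:23411502-23449632 for Sfrp1, chr3:132085292-132180304 for Dkk2, chr10:29452416-29535867 for Rspo3, chr19:55741820-55933654 for Tcf7l2 and chr11:108920349-108950783 for Axin2. The matrices hold 1 value per gene, so exon, intron and UTR cannot be told apart. No member overlaps a protein-coding gene model, but Wnt5a, Dact2, Axin2 and Rspo3 overlap an antisense model and Ror1 a processed pseudogene on the other strand, whose reads could not be told apart if strand was not used in counting. Ror1, Rspo3 and Tcf7l2 also overlap 1 non-coding model each on their own strand (Gm12701, Gm20276 and Ppnr), which strand would not separate.

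The members were high in different groups. Wnt5a was high in both fibroblast groups, Dact2 in Pi16 fibroblasts, Ror2 in Lrrtm3 muscle and both fibroblast groups, Ror1 in muscle and fibroblasts, Sfrp1 in endothelium, Rspo3 in Lrrtm3 muscle and Axin2 in fat, while Tcf7l2 lay between 511 and 595 CPM in all 6 groups. Differences between groups were tested with edgeR's quasi-likelihood test on the 12 sums of group and library, with library as a block and p-values adjusted (Benjamini-Hochberg) over all 18286 genes tested, and a gene is called higher or lower at an adjusted p of 0.05. The 10 members all passed the filter on low counts. These p-values measure how far group contrasts differ between 2 libraries that also differ by sex, and the comparisons share groups: other muscle stands in 3 of them and other fibroblast in 4.

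**Figure D1:**
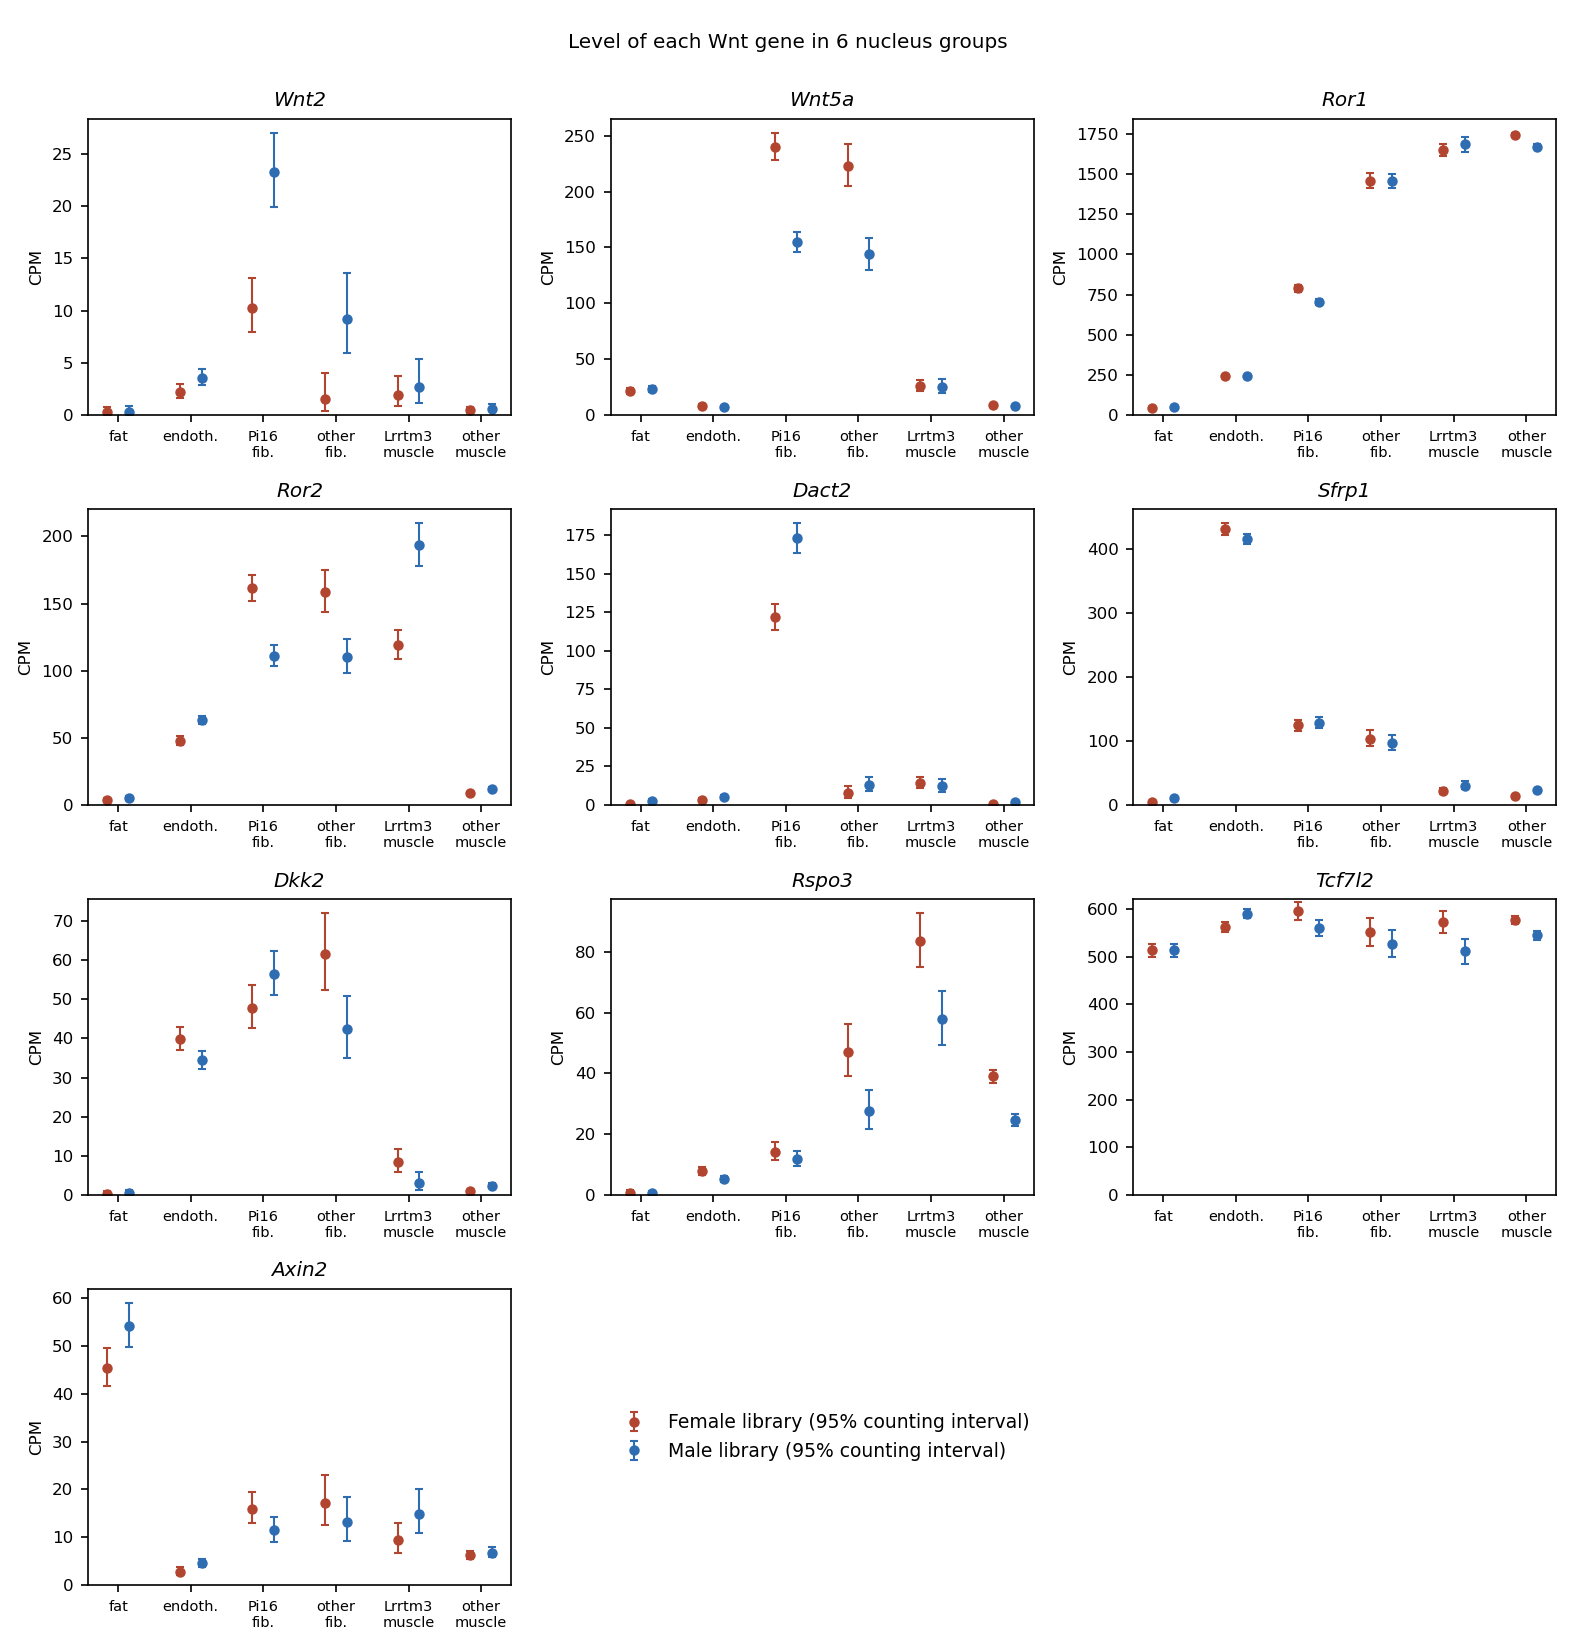
Level of each member in CPM (linear axis from 0, own scale per gene) in the 6 nucleus groups, with 1 point per library (Female left, Male right) and 95% Poisson intervals that cover counting error only. Wnt5a is high in both fibroblast groups (144 to 240.3 CPM), Dact2 in Pi16 fibroblasts (122 and 173 CPM), Sfrp1 in endothelium (432 and 416 CPM) and Axin2 in fat (45.4 and 54.3 CPM), while Tcf7l2 stays between 511 and 595 CPM.

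In Lrrtm3 muscle 6 of the 10 members were higher than in other muscle (Wnt2, Wnt5a, Ror2, Dact2, Dkk2 and Rspo3) and the other 4 were not called, where 8.9% of all genes tested were called (5.63% higher and 3.27% lower). The members' median log2 fold change was 1.32, against -0.03 over all genes. The calls of Wnt2, Dact2 and Dkk2 were lost where doublets called by scrublet or nuclei with markers of a second class were left out. The genes that split off Lrrtm3 muscle were also high in fibroblasts, as given above. What part fibroblast RNA had in the 6 calls was not tested. In Pi16 fibroblasts 2 members were higher than in other fibroblasts (Wnt2 and Dact2) and 2 lower (Ror1 and Rspo3), with 10.4% of all genes called (4.01% higher, 6.41% lower) and a median of 0.12 for the members. Other fibroblasts differed from other muscle in 8 members, 7 higher and 1 lower (Ror1), with 34.9% of all genes called (19.3% higher, 15.6% lower) and medians of 2.52 for the members and -0.01 for all genes. Endothelium differed from other muscle in 8 members, 5 higher and 3 lower, with 46.9% of all genes called (24.3% higher, 22.6% lower). From other fibroblasts it differed in 7, 1 higher and 6 lower, with 36% called (16.8% higher, 19.2% lower). Fat differed from other fibroblasts in 9 members, 1 higher (Axin2) and 8 lower, where 59.5% of all genes were called (28.5% higher, 31% lower). A share of the members near that of all genes is no result about the members. The members and groups were chosen with earlier results of these data known. A share or median apart from that of all genes is thus a description and no independent evidence.

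Wnt2, a ligand of the canonical branch known from lung and vessel development, was sparse. Pi16 fibroblasts held 65 Female and 171 Male UMIs (10.3 and 23.2 CPM), and other fibroblasts 4 and 25 UMIs (1.56 and 9.20 CPM). The Pi16 group was thus the higher one in each library, although the Female Pi16 level lay close to the Male level of other fibroblasts. The log2 difference was 1.71 ± 0.38 (SE, adjusted p = 0.0124) with library as a block and lost its call without the block (adjusted p = 0.134). It was 2.62 in the Female library alone and 1.37 in the Male library alone. Levels were 2.23 and 3.58 CPM in endothelium, 1.90 and 2.72 in Lrrtm3 muscle, 0.436 and 0.623 in other muscle, and 3 UMIs per library in fat. Other fibroblasts, endothelium and Lrrtm3 muscle overlapped in range, and the immune nuclei (4.55 and 0.469 CPM) were above all 3 in the Female library and below all 3 in the Male library. Other fibroblasts were called higher than other muscle (3.07 ± 0.48, adjusted p = 0.000348), by 1.79 in the Female library alone and 3.70 in the Male library alone. In 5 of 9 alternative settings Wnt2 was not called higher in Lrrtm3 muscle than in other muscle (2.04 ± 0.55, adjusted p = 0.0423).

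Wnt5a, the prototype non-canonical ligand, was highest in the fibroblast groups. Its level was 240.3 (Female) and 155 (Male) CPM in Pi16 fibroblasts, 8.11 and 7.24 CPM in endothelium and 223 and 144 CPM in other fibroblasts, against 9.002 and 7.63 CPM in other muscle. Both fibroblast groups lay above every other group, and their ranges overlapped each other (log2 difference of Pi16 minus other fibroblasts 0.16 ± 0.15, adjusted p = 0.62). The difference of other fibroblasts from other muscle was 4.28 ± 0.17 (adjusted p = 8.03e-09) and that of endothelium from other fibroblasts -4.47 ± 0.18 (adjusted p = 1.26e-08). At least 1 Wnt5a UMI was found in 44.6% (42.0% to 47.2%) of Female and 32.0% (29.8% to 34.3%) of Male Pi16 fibroblast nuclei, against 0.514% and 0.644% of immune nuclei, and thinning every nucleus to 1000 UMIs left 19.3% and 12.4%, against 0.375% and 0% of immune nuclei (0 of 711, interval up to 0.517%).

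Lower levels of Wnt5a were found in Lrrtm3 muscle and fat. Lrrtm3 muscle had 25.9 and 25.5 CPM, above 9.002 and 7.63 CPM in other muscle in both libraries (1.55 ± 0.19, adjusted p = 0.000358), and the call was kept in all 9 alternative settings, with log2 differences of 0.89 to 1.62. Fat had 21.5 and 23.1 CPM. The 3 fibroblast markers of the rule were also higher in Lrrtm3 muscle, as given above, while the 5 other fibroblast markers summed to 988 and 921 CPM in Lrrtm3 muscle, against 1158 and 971 CPM in other muscle. Pericyte markers (Rgs5, Kcnj8 and Abcc9) summed to 630.5 and 614 CPM in Lrrtm3 muscle, against 394 and 333 CPM in other muscle. The fibroblast groups held these markers too, at 623 (Female) and 528 (Male) CPM in Pi16 fibroblasts and 815 and 666 CPM in other fibroblasts. The Wnt5a difference was smallest, 0.89, where nuclei with markers of a second class were left out. What part RNA of other cell types had in it was not tested.

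Other ligands of the family had patterns of their own, by a rule that named up to 4 further pathway genes per comparison. Wnt10b had 26.7 and 32.9 CPM in Pi16 fibroblasts, against 4.68 and 3.68 CPM in other fibroblasts (2.89 ± 0.40, adjusted p = 0.000565). Wnt11 had 21.1 and 19.1 CPM in other fibroblasts, against 0.623 and 1.09 CPM in other muscle (4.4 ± 0.28, adjusted p = 2.15e-07). Wnt16 had 10.4 and 6.80 CPM in Lrrtm3 muscle, against 23.9 and 31.9 CPM in other muscle (-1.73 ± 0.28, adjusted p = 0.00191). Wnt5b, a close relative of Wnt5a, was higher in Lrrtm3 muscle too (68.6 and 75.5 CPM, against 18.2 and 21.8 CPM in other muscle, 1.77 ± 0.15, adjusted p = 1.83e-05). These 4 calls were kept where nuclei with mesothelium markers were left out.

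The receptors Ror1 and Ror2 bind Wnt5a, and the aortic groups held them in different orders. Ror1 was highest in muscle, with 1649.7 (Female) and 1684 (Male) CPM in Lrrtm3 muscle and 1742 and 1671 CPM in other muscle, overlapping ranges whose difference was not called (-0.10 ± 0.10, adjusted p = 0.626). Pi16 fibroblasts had 790.3 and 704 CPM and other fibroblasts 1457 and 1456 CPM, so the fibroblast groups were apart in both libraries. Ror1 was lower in Pi16 than in other fibroblasts by a log2 difference of -0.91 ± 0.10 (adjusted p = 9.75e-05), which was called in all 9 alternative settings. Other fibroblasts were below other muscle by -0.40 ± 0.10 (adjusted p = 0.00709), a call that was lost with scaling to the total of each sum (-0.23, adjusted p = 0.125), a scaling that shifts the median of all genes to 0.16.

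Ror1 was lower in endothelium and fat. Its level was 243 and 241 CPM in endothelium (log2 difference from other muscle -2.91 ± 0.10, adjusted p = 1.72e-09) and 43.0 and 49.6 CPM in fat. The immune nuclei had 42.2 and 31.4 CPM, so the level of fat was close to that of free RNA and is not read as expression. In other muscle 87.4% (86.7% to 88.2%) and 81.7% (80.8% to 82.6%) of nuclei had a Ror1 UMI, against 5.48% and 6.44% of immune nuclei.

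Ror2 stood apart in the muscle. Lrrtm3 muscle had 119 (Female) and 193 (Male) CPM, against 8.63 and 11.6 CPM in other muscle. Both Lrrtm3 levels were above both levels of other muscle, and the log2 difference was 3.87 ± 0.29 (adjusted p = 9.07e-06), with 3.67 to 4.46 in the 9 alternative settings, all called. A Ror2 UMI was present in 24.8% (22.0% to 27.8%) and 34.0% (30.4% to 37.7%) of Lrrtm3 muscle nuclei, in 1.83% and 2.48% of other muscle nuclei and in 0.342% and 0.644% of immune nuclei. After thinning to 1000 UMIs the shares were 10.9% and 17.4% in Lrrtm3 muscle and 0.731% and 1.22% in other muscle.

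In the fibroblasts Ror2 was 161 and 111 CPM in Pi16 fibroblasts and 159 and 110.4 CPM in other fibroblasts, and these ranges overlapped each other and that of Lrrtm3 muscle (Pi16 minus other fibroblasts 0.08 ± 0.26, adjusted p = 0.923). Endothelium was intermediate with 47.8 and 63.3 CPM, a log2 difference of 2.37 ± 0.27 from other muscle (adjusted p = 1.67e-05) and of -1.21 ± 0.26 from other fibroblasts (adjusted p = 0.00353). The difference from other fibroblasts was -1.65 in the Female library alone and -0.73 in the Male library alone. Fat had 3.60 and 5.13 CPM and the immune nuclei 2.60 and 2.34 CPM.

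Among other receptors named by the rule, Lgr6, a receptor for R-spondins, was lower in both endothelium and other fibroblasts than in other muscle. It had 40.7 and 45.1 CPM in endothelium, against 1026 and 992 CPM in other muscle (-4.64 ± 0.25, adjusted p = 2.80e-08). Other fibroblasts had 74.1 and 45.6 CPM of Lgr6 (-4.27 ± 0.26 from other muscle, adjusted p = 1.23e-07). Fzd6, a Frizzled receptor, was higher in endothelium, with 153 and 148 CPM, against 14.4 and 10.3 CPM in other fibroblasts (3.69 ± 0.21, adjusted p = 1.08e-07). Celsr1, a cadherin of the planar polarity branch, was higher in endothelium as well (46.7 and 40.8 CPM, against 2.96 and 3.89 CPM in other muscle, 3.61 ± 0.23, adjusted p = 1.17e-07).

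Rspo3 encodes an R-spondin, a secreted protein that raises Wnt signalling by protecting Frizzled receptors from degradation. It was highest in Lrrtm3 muscle, with 83.6 (Female) and 57.8 (Male) CPM, against 39.1 and 24.7 CPM in other muscle. The lowest level of Lrrtm3 muscle was above the highest of other muscle, and the log2 difference of 1.09 ± 0.12 (adjusted p = 0.000188) was lost only without the library block (adjusted p = 0.0582) among 9 alternative settings. Other muscle, with many more nuclei, held 63.6% (Female) and 57.6% (Male) of all Rspo3 UMIs in grouped nuclei, and Lrrtm3 muscle 17.8% and 15.4%.

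Among fibroblasts Rspo3 was lower in the Pi16 group. Pi16 fibroblasts had 14.2 and 11.8 CPM, against 47.2 and 27.6 CPM in other fibroblasts (-1.43 ± 0.16, adjusted p = 0.000107), and the call was kept in all 9 alternative settings. Other fibroblasts and other muscle overlapped in range, and their difference was not called (0.06 ± 0.14, adjusted p = 0.791). Endothelium had 7.79 and 5.21 CPM and fat 0.810 and 0.718 CPM, while the immune nuclei had 0.649 CPM in the Female library and 0 UMIs in the Male library, which allows up to 1.41 CPM (3 counts).

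Rspo1, a second R-spondin named by the rule, was higher than in other muscle both in Lrrtm3 muscle (21.4 and 60.2 CPM, against 2.09 and 4.05 CPM in other muscle, 3.59 ± 0.21, adjusted p = 2.09e-06) and in other fibroblasts (122 and 252 CPM, 5.74 ± 0.20, adjusted p = 2.82e-09). Mesothelium markers moved with it. Without nuclei holding at least 2 UMIs of them, the Lrrtm3 muscle difference was 1.56 (adjusted p = 0.0727), the difference of other fibroblasts from other muscle 3.77 (adjusted p = 4.64e-06), and that of Pi16 from other fibroblasts -0.32 (adjusted p = 0.674), against -3.39 ± 0.19 (adjusted p = 7.92e-07) with all nuclei. Rspo3 kept its calls in both of these muscle and fibroblast splits without those nuclei.

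Sfrp1, a secreted Frizzled-related protein that binds Wnt ligands, was highest in endothelium. Its level was 432 (Female) and 416 (Male) CPM in endothelium, against 104 and 96.8 CPM in other fibroblasts and 14.5 and 22.9 CPM in other muscle. Both endothelial levels were above every other group, by a log2 difference of 4.45 ± 0.24 from other muscle (adjusted p = 3.03e-08) and of 2.16 ± 0.23 from other fibroblasts (adjusted p = 1.46e-05), and both calls were kept in all 9 alternative settings. Endothelium held 83.1% and 83.7% of the Sfrp1 UMIs of grouped nuclei, and 57.8% (56.4% to 59.2%) and 53.6% (52.4% to 54.8%) of its nuclei had at least 1, against 1.88% and 3.22% of immune nuclei. Pi16 fibroblasts had 125 and 129 CPM, and their difference from other fibroblasts was not called (0.39 ± 0.23, adjusted p = 0.368). Lrrtm3 muscle (21.6 and 30.3 CPM) and other muscle overlapped in range, and fat (4.05 and 10.46 CPM) lay at or below the immune nuclei (9.74 and 13.1 CPM).

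**Figure D2:**
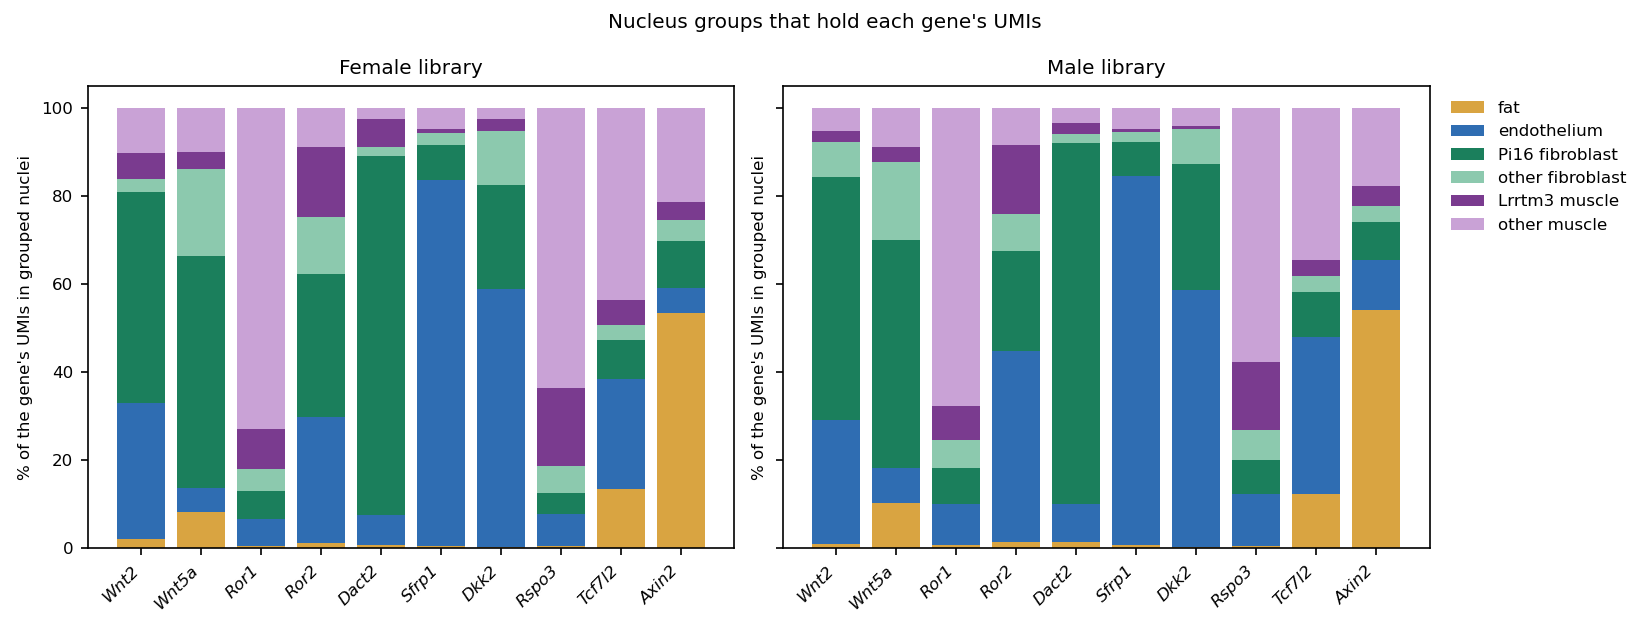
Share of each member's UMIs (percent of the gene's UMIs in grouped nuclei, stacked to 100) that fell in each nucleus group, for the Female and the Male library. Endothelium holds 83.1% and 83.7% of Sfrp1, Pi16 fibroblasts 81.6% and 82.0% of Dact2, other muscle 73.0% and 67.7% of Ror1, and fat 53.5% and 54.0% of Axin2.

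Dkk2, a secreted Dickkopf protein that binds LRP co-receptors and mostly inhibits canonical signalling, was found in fibroblasts and endothelium. Pi16 fibroblasts had 47.9 and 56.5 CPM, endothelium 40.0 and 34.5 CPM and other fibroblasts 61.6 and 42.3 CPM, against 0.997 and 2.30 CPM in other muscle. The fibroblast groups overlapped (0.08 ± 0.29, adjusted p = 0.936), and endothelium lay below them, with a difference from other fibroblasts that was not called (-0.40 ± 0.29, adjusted p = 0.317). The differences from other muscle were 4.84 ± 0.36 for other fibroblasts (adjusted p = 6.75e-07) and 4.44 ± 0.33 for endothelium (adjusted p = 4.30e-07).

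The Dkk2 UMIs came from few nuclei. In Pi16 fibroblasts 303 Female UMIs lay in 39 of 1463 nuclei (2.67%, exact interval 1.90% to 3.63%) and 416 Male UMIs in 49 of 1727 (2.84%, 2.11% to 3.73%). In endothelium 754 and 847 UMIs lay in 183 and 234 nuclei (3.52% and 3.44%). Immune nuclei with a Dkk2 UMI were 0.342% and 0.257%. Lrrtm3 muscle had 36 Female UMIs in 6 nuclei and 9 Male UMIs in 4 nuclei (8.55 and 3.06 CPM), and its call against other muscle (1.87 ± 0.51, adjusted p = 0.0415) was lost in 3 of 9 alternative settings. The log2 difference was 3.04 in the Female library alone and 0.40 in the Male library alone.

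Other secreted modulators named by the rule also differed between groups. Frzb, a relative of Sfrp1, had 55.1 and 44.2 CPM in Lrrtm3 muscle, against 11.5 and 7.44 CPM in other muscle (2.32 ± 0.31, adjusted p = 0.000599). Sost, which encodes the LRP inhibitor sclerostin, had 16.6 and 15.5 CPM in endothelium, against 160 and 169 CPM in other muscle (-3.44 ± 0.12, adjusted p = 1.40e-09). Dkk3 and Sfrp4 were lower in fat than in other fibroblasts, with 4.77 and 6.26 CPM of Dkk3 in fat, against 237 and 155 CPM in other fibroblasts, and 0.810 and 2.05 CPM of Sfrp4, against 40.6 and 29.8 CPM (log2 differences -5.08 ± 0.23 and -4.58 ± 0.30, adjusted p = 5.17e-09 and 1.13e-07).

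Dact2, which encodes a cytoplasmic protein that binds Dishevelled, separated the fibroblast groups. Pi16 fibroblasts had 122 (Female) and 173 (Male) CPM, against 7.80 and 12.9 CPM in other fibroblasts. The groups did not come near each other, and the log2 difference of 3.90 ± 0.29 (adjusted p = 6.88e-06) was called in all 9 alternative settings, at 3.85 to 4.35. Pi16 fibroblasts held 81.6% and 82.0% of all Dact2 UMIs of grouped nuclei, and 21.0% (18.9% to 23.2%) and 27.4% (25.4% to 29.6%) of their nuclei had at least 1, against 2.62% and 3.85% of other fibroblast nuclei and 0.171% and 0.515% of immune nuclei.

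Elsewhere Dact2 was low. Lrrtm3 muscle had 14.2 and 12.2 CPM, against 0.716 and 2.10 CPM in other muscle (3.29 ± 0.35, adjusted p = 0.000123), with 60 Female UMIs and 36 Male UMIs in 17 nuclei of each library. This call was lost where doublets called by scrublet or nuclei with markers of a second class were left out, with log2 differences of 1.30 and 0.415. The call of endothelium over other muscle (3.39 and 5.33 CPM, against 0.716 and 2.10 CPM, 1.59 ± 0.31, adjusted p = 0.00126) was lost in the same settings and turned to -0.07 where nuclei with markers of a second class were left out. The difference of other fibroblasts from other muscle (2.76 ± 0.41, adjusted p = 0.000223) was kept in all 9 settings.

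Other Dishevelled-binding genes had patterns of their own. Dact1, which like Dact2 binds Dishevelled, had 2.97 and 3.13 CPM in endothelium, against 41.7 and 36.4 CPM in other fibroblasts (-3.59 ± 0.18, adjusted p = 4.72e-08). Daam2, a formin that also binds Dishevelled, had 8.06 and 2.99 CPM in Pi16 fibroblasts, against 38.2 and 43.0 CPM in other fibroblasts (-2.89 ± 0.30, adjusted p = 8.19e-05).

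Tcf7l2, the TCF/LEF factor that binds beta-catenin at target genes, varied little. From the highest mean to the lowest, its level was 595 (Female) and 560.4 (Male) CPM in Pi16 fibroblasts, 562 and 590.4 in endothelium, 576 and 544 in other muscle, 572 and 511 in Lrrtm3 muscle, 551 and 527 in other fibroblasts and 513 and 513 in fat. Neighbouring groups in this order overlapped, except that other fibroblasts lay above fat in both libraries. The 6 comparisons gave log2 differences between -0.22 (other fibroblasts minus other muscle, SE 0.09, adjusted p = 0.0895) and 0.18 (endothelium minus other fibroblasts, SE 0.09, adjusted p = 0.176), none of them called. The first of these was called lower in 5 of 9 alternative settings. Immune nuclei had 213 and 177 CPM.

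Within fat Tcf7l2 differed between nuclei with and without brown fat transcripts, given here as a description with no test. Fat nuclei with no UMI of Ucp1 and Cidea (149 Female, 249 Male, median 5031 and 4457 UMIs) had 967 and 774 CPM of Tcf7l2. Those with at least 2 such UMIs (1226 Female, 961 Male, median 7363.5 and 7584 UMIs) had 458 and 449 CPM. In both libraries the Ucp1-negative nuclei were higher, and their 95% counting intervals (901 to 1036 and 727 to 823 CPM) lay clear of those of the positive nuclei (445 to 472 and 434 to 464 CPM).

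Axin2, a scaffold of the beta-catenin destruction complex and itself a common target of the canonical branch, was highest in fat. Fat had 45.4 (Female) and 54.3 (Male) CPM, against 17.2 and 13.2 CPM in other fibroblasts. Every level of fat was above every level of the other groups, and the log2 difference from other fibroblasts was 1.76 ± 0.25 (adjusted p = 9.14e-05), called in all 9 alternative settings at 1.60 to 2.045. An Axin2 UMI was found in 22.8% (20.7% to 25.03%) and 25.2% (22.9% to 27.6%) of fat nuclei, against 1.37% and 1.93% of immune nuclei, and after thinning in 4.98% and 4.59%, against 0.563% and 0.563%. Within fat the level was 58.7 and 78.8 CPM in nuclei with no Ucp1 or Cidea UMI and 41.7 and 47.0 CPM in those with at least 2.

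Outside fat Axin2 was low, above the immune nuclei in the fibroblast groups and Lrrtm3 muscle and at or below them in endothelium and other muscle. Pi16 fibroblasts had 15.97 and 11.4 CPM and Lrrtm3 muscle 9.50 and 14.96 CPM, and these overlapped each other and other fibroblasts. Endothelium (2.81 and 4.56 CPM) and other muscle (6.26 and 6.78 CPM) lay at or below the immune nuclei (7.14 and 8.44 CPM). Endothelium was called lower than other muscle (-0.90 ± 0.24, adjusted p = 0.00843), but both levels are in the range of background and no order is read from them. The call of other fibroblasts over other muscle (1.05 ± 0.28, adjusted p = 0.0118) was lost without nuclei holding mesothelium markers (adjusted p = 0.0911).

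Of a list of 92 further Wnt pathway genes, 73 passed the filter on low counts. This list, too, was chosen with earlier results of these data known. In Lrrtm3 muscle 16 were higher and 3 lower than in other muscle, with a median log2 difference of 0.20 over the 73, where 8.9% of all genes were called. Pi16 fibroblasts had 6 higher and 13 lower than other fibroblasts (median -0.11, 10.4% of all genes called), and other fibroblasts 31 higher and 16 lower than other muscle (median 0.33, 34.9% of all genes). Endothelium had 26 higher and 22 lower than other muscle (median 0.02, 46.9% of all genes) and 16 higher and 33 lower than other fibroblasts (median -0.36, 36% of all genes). Fat had 10 higher and 41 lower than other fibroblasts, where 59.5% of all genes were called, with a median of -0.87, against -3.92 for the members and -0.01 for all genes tested.

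The genes most like each member across the 12 sums, by Pearson's r of log2(CPM + 1) among 9462 candidate genes, are given as a description, 2 per member. Dact2 went with the ligand Wnt10b (0.984) and Cadm3 (0.981), Sfrp1 with Slc50a1 (0.995) and Ifitm2 (0.992), Dkk2 with Ifi203 (0.983) and Tfpi (0.9805), and Axin2 with Lpgat1 (0.982) and Natd1 (0.970). Wnt5a went with Olfml1 (0.989) and Sclt1 (0.979), Wnt2 with Jpt1 (0.953) and Sgtb (0.953), Ror1 with Ntf3 (0.992) and Dnajc1 (0.992), and Ror2 with Mindy4 (0.960) and Il1rap (0.957). Rspo3 went with Tbx15 (0.981) and Col4a6 (0.977). Tcf7l2 had the lowest values, 0.867 for Ick and 0.849 for Aktip. The 12 points share 2 libraries and 6 groups, so they are not independent.

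The reporter was used to ask whether nuclei with the neural crest label differ in these genes from nuclei without it in the same group. Nuclei with GFP UMIs and no tdTomato UMI were compared with nuclei with tdTomato UMIs and no GFP UMI, on 16 sums of 4 groups, 2 libraries and both labels, with edgeR's quasi-likelihood test over 13406 genes and each group and library as a block. GFP-only and tdTomato-only nuclei numbered 2112 and 1663 (Female) and 1965 and 1404 (Male) in other muscle, 298 and 192 and 346 and 187 in Pi16 fibroblasts, and 118 and 95 and 107 and 134 in other fibroblasts. A nucleus without reporter UMIs is in neither set, and what part free reporter RNA had in the labels was not tested. In each of the 3 groups described 1 of the 10 members was called.

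In Pi16 fibroblasts Dkk2 was higher in GFP-only nuclei, where 0.828% of all genes were called (0.298% higher, 0.53% lower). It had 117 (Female) and 43.5 (Male) CPM in GFP-only nuclei, against 19.9 and 13.9 CPM in tdTomato-only nuclei. Both GFP-only levels were above both tdTomato-only levels, and the log2 difference was 2.25 ± 0.32 (adjusted p = 0.00127). The 167 Female and 71 Male UMIs of GFP-only nuclei lay in 11 of 298 and 9 of 346 nuclei, against 18 and 12 UMIs in 5 of 192 and 4 of 187 tdTomato-only nuclei. The call was lost where the label was taken from 2 UMIs and without the block (adjusted p up to 0.407), at log2 differences of 2.15 to 2.83 over the 9 settings. Markers of endothelium, another group with Dkk2, summed to 224 and 254 CPM in GFP-only nuclei, against 364 and 357 CPM in tdTomato-only nuclei. Pericyte markers moved with Dkk2, at 737 and 554 CPM in GFP-only nuclei, against 389.7 and 280.2 CPM in tdTomato-only nuclei. As given above, the fibroblast groups as a whole held these markers, and their part in the result was not tested. The difference of this label effect from that in other muscle was 3.15 ± 0.78 and was not called (adjusted p = 0.122), in a test that called 0.179% of all genes (0.097% higher, 0.0821% lower).

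Ror1 had 977 and 849.7 CPM in GFP-only and 628 and 727 CPM in tdTomato-only Pi16 fibroblasts, so the GFP-only levels were the higher ones in both libraries, but the log2 difference of 0.45 ± 0.11 was not called (adjusted p = 0.0569). It was called in 3 of 9 alternative settings, among them the one without nuclei holding mesothelium markers (0.45, adjusted p = 0.0327). Dkk3 was the further pathway gene named here, with 215 and 133 CPM in GFP-only nuclei, against 129 and 94.96 CPM in tdTomato-only nuclei (0.65 ± 0.14, adjusted p = 0.0354), a call that was lost without called doublets at a similar fold (0.55, adjusted p = 0.0885).

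In other muscle Sfrp1 was lower in GFP-only nuclei, where 1.53% of all genes were called (0.336% higher, 1.19% lower). It had 10.2 (Female) and 13.9 (Male) CPM in GFP-only nuclei, against 18.6 and 29.8 CPM in tdTomato-only nuclei, with no overlap between the labels. The GFP-only levels were close to the Sfrp1 levels of the immune nuclei given above and are not read as expression. The log2 difference was -0.98 ± 0.23 (adjusted p = 0.0343). Endothelial markers moved with it, at 29.3 and 68.1 CPM in GFP-only nuclei, against 77.3 and 113 CPM in tdTomato-only nuclei, as did immune markers (41.3 and 90.3 CPM in GFP-only nuclei, against 139 and 317 CPM in tdTomato-only nuclei). The call was lost, at -0.29, where called doublets were left out. It was also lost with DESeq2 and without the block. Wif1, a secreted inhibitor that binds Wnt ligands, was higher in GFP-only nuclei (22.4 and 16.7 CPM, against 10.1 and 7.28 CPM in tdTomato-only nuclei, 1.18 ± 0.26, adjusted p = 0.0196).

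In other fibroblasts Ror2 was lower in GFP-only nuclei, where 4.26% of all genes were called (1.67% higher, 2.59% lower). It had 97.5 (Female) and 82.1 (Male) CPM in GFP-only nuclei, against 194 and 122 CPM in tdTomato-only nuclei. The labels did not overlap, and the log2 difference was -0.83 ± 0.23 (adjusted p = 0.0439), a call that was lost in 6 of 9 alternative settings. Mesothelium markers moved with it, at 86.1 and 316 CPM in GFP-only nuclei, against 897 and 1389 CPM in tdTomato-only nuclei, and without nuclei holding them the difference was -0.90 (adjusted p = 0.156). Endothelial markers moved the same way (68.0 and 103 CPM in GFP-only nuclei, against 184 and 276 CPM in tdTomato-only nuclei) and pericyte markers the other way (843 and 944 CPM in GFP-only nuclei, against 471 and 301 CPM in tdTomato-only nuclei), and their part was not tested. The difference between the label effects of other fibroblasts and other muscle was itself called for Ror2 (-1.18 ± 0.30, adjusted p = 0.0391), in a test that called 2.64% of all genes (1.16% higher, 1.48% lower), and that call was lost in 5 of 9 settings.

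Other pathway genes moved with the same label in other fibroblasts. Rspo1 had 27.2 and 121 CPM in GFP-only nuclei, against 176 and 480.3 CPM in tdTomato-only nuclei (-2.21 ± 0.24, adjusted p = 4.14e-06), and without the mesothelium marker nuclei the difference was -0.63 (adjusted p = 0.806). Ccnd1, a cell cycle gene often used as a Wnt target, had 2.27 and 10.3 CPM in GFP-only nuclei, against 24.0 and 38.0 CPM in tdTomato-only nuclei (-2.35 ± 0.63, adjusted p = 0.0339), and was likewise not called without the mesothelium marker nuclei (adjusted p = 0.955). Its fold rests on few UMIs, since 10.3 CPM was 4 UMIs in Male GFP-only nuclei. Wnt4 had 0 and 2.57 CPM in GFP-only nuclei, against 13.3 and 38.0 CPM in tdTomato-only nuclei (adjusted p = 0.0423). This call rests on few UMIs, and Wnt4 has no value without the mesothelium marker nuclei, so their part in it is not known. Sfrp2 was the one named gene higher in GFP-only nuclei, with 118 and 136 CPM, against 5.33 and 34.9 CPM in tdTomato-only nuclei (2.47 ± 0.35, adjusted p = 0.000105), and it stayed called without the mesothelium marker nuclei (1.85, adjusted p = 0.0116). The 5.33 CPM of Female tdTomato-only nuclei was 2 UMIs. The pericyte markers, which the fibroblast groups as a whole held, moved in the same direction as Sfrp2 in both libraries, and their part in it was not tested.

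**Figure D3:**
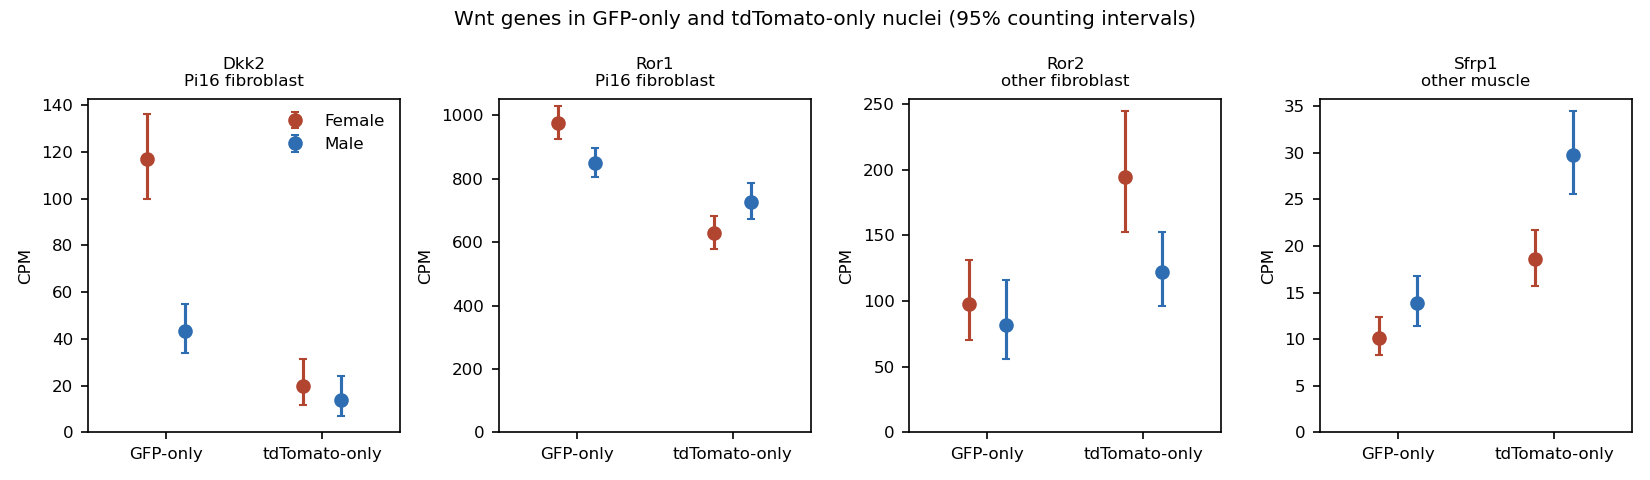
CPM of Dkk2 and Ror1 in Pi16 fibroblasts, Ror2 in other fibroblasts and Sfrp1 in other muscle, in GFP-only (left) and tdTomato-only nuclei (right) of the Female and the Male library, with 95% Poisson intervals for counting error (linear axes from 0). GFP-only nuclei are higher in both libraries for Dkk2 (117 and 43.5 CPM, against 19.9 and 13.9 CPM) and lower for Ror2 (97.5 and 82.1 CPM, against 194 and 122 CPM) and Sfrp1 (10.2 and 13.9 CPM, against 18.6 and 29.8 CPM). The GFP-only levels of Sfrp1 are close to those of the immune nuclei.

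The sexes can only be set side by side, since 1 library each allows no test. Ratios of Female to Male CPM carry exact 95% intervals for counting error, 60 in all, and a gene counts as apart where the ratio after adding 5 CPM to each side is at least 2-fold, among genes with at least 50 UMIs and 20 CPM in either library. By this rule 0 members were apart in any of the 6 groups, of 6 members that passed in Lrrtm3 muscle, 4 in other muscle, 8 in Pi16 fibroblasts, 7 in other fibroblasts, 5 in endothelium and 4 in fat. Over all genes 0.994% were apart in Lrrtm3 muscle (0.225% higher and 0.769% lower in the Female library), 0.46% in other muscle (0.125% and 0.335%) and 0.811% in Pi16 fibroblasts (0.275% and 0.537%). The shares were 2.08% in other fibroblasts (0.735% and 1.35%), 0.412% in endothelium (0.0265% and 0.385%) and 2.08% in fat (0.817% and 1.26%).

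Smaller differences ran along the fibroblasts. Wnt5a was higher in the Female library in Pi16 fibroblasts (240.3 Female and 155 Male CPM, ratio 1.55, interval 1.44 to 1.68) and in other fibroblasts (223 and 144 CPM, 1.55, 1.36 to 1.77), but its interval included 1 in the other 4 groups. Its receptor Ror2 was also higher in the Female library in both fibroblast groups (161 and 111 CPM, ratio 1.45, and 159 and 110.4 CPM, ratio 1.44). In Lrrtm3 muscle (119 and 193 CPM, ratio 0.616, interval 0.545 to 0.696) and endothelium (47.8 and 63.3 CPM, 0.755, 0.695 to 0.820) Ror2 was lower in the Female library.

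Rspo3 was higher in the Female library wherever its interval excluded 1. Its ratio was 1.45 (1.20 to 1.75) in Lrrtm3 muscle, 1.58 (1.43 to 1.74) in other muscle, 1.71 (1.27 to 2.31) in other fibroblasts and 1.495 (1.17 to 1.91) in endothelium. Dact2 and Wnt2 ran the other way in Pi16 fibroblasts, with 122 Female and 173 Male CPM of Dact2 (0.703, 0.642 to 0.770) and 10.3 and 23.2 CPM of Wnt2 (0.442, 0.327 to 0.592). Wnt2 reached a 2-fold difference after the pseudocount there when 1 CPM was added in place of 5 or when nuclei were thinned to 1000 UMIs. In other fibroblasts Wnt2 (4 Female and 25 Male UMIs, 1.56 and 9.20 CPM) was more than 2-fold apart but did not pass the filter. Sfrp1 was lower in the Female library in other muscle (14.5 and 22.9 CPM, 0.634, 0.560 to 0.717), while Tcf7l2 stayed within 0.952 and 1.12 in all groups. Mesothelium markers and depth also differed between the libraries, as given above, and their part in these ratios was not tested.

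**Figure D4:**
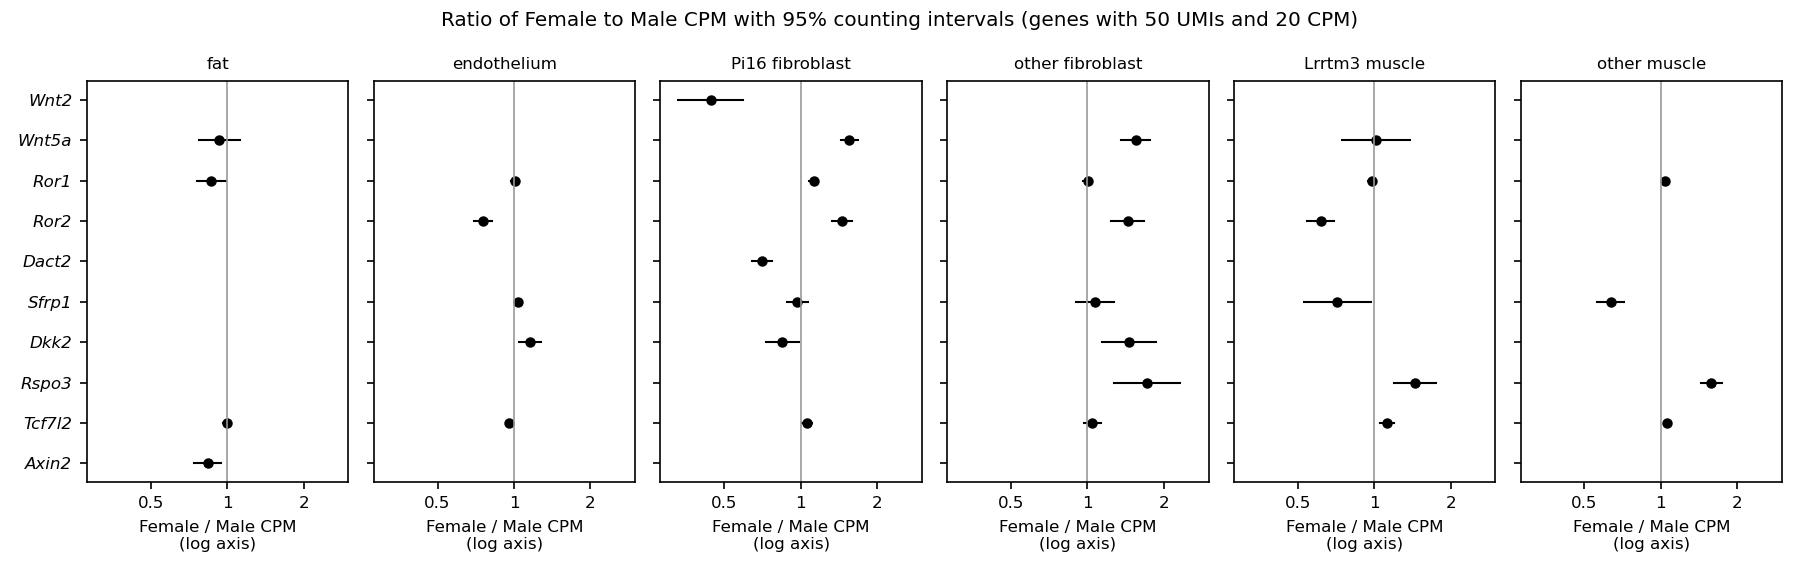
Ratio of Female to Male CPM (log axis) for each member that passed the filter of 50 UMIs and 20 CPM, with exact 95% intervals for counting error, in the 6 nucleus groups. Wnt5a lies at 1.55 in both fibroblast groups, Ror2 is above 1 in fibroblasts (1.45 and 1.44) and below 1 in Lrrtm3 muscle (0.616), and Rspo3 is above 1 in both muscle groups (1.45 and 1.58).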

How the data were processed

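Per the labels, nuclei of pooled tissue were sequenced with a droplet kit (BMKMANU DG1000) as 1 Female library and 1 Male library. The authors deposited 1 matrix of raw UMI counts per library, made with Cell Ranger 7.0.0 per the file headers, while the submitters' processing notes name STAR, Cell Ranger, Seurat 4.4.0 and GRCm38. Annotation version, strand setting and intron treatment were not given in the sources used here. Totals were 18872 barcodes and 79294181 UMIs in the Female matrix and 20659 barcodes and 77989549 UMIs in the Male matrix, and 9 and 6 barcodes with under 300 genes were left out.

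Nuclei were grouped by marker UMIs, with ties (77 Female, 82 Male) left ungrouped. UMIs were summed by group and library and tested with edgeR 4.0.16 in R 4.3.3 (quasi-likelihood test, TMM scaling, filterByExpr, library as a block, 5 residual degrees of freedom, and 4 in the reporter fit, which also held endothelium). P-values were adjusted over all genes tested. Sums of the same library come from the same pool of animals, which is where the pairing by library comes from. Levels, shares, intervals and ratios between the sexes were computed in Python 3.11.15 with scipy 1.17.1, pandas 2.3.3 and numpy 2.4.6. Doublets were kept, and left out in an alternative that used scrublet in scanpy 1.11.5 (expected rate 0.08), which called 942 Female and 1504 Male nuclei and also left out 4 and 8 nuclei with over 10% mitochondrial UMIs. Promoter windows and gene spans came from RefSeq and GENCODE tables of GRCm38.

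Besides the 10 members, the text names up to 4 of 92 other Wnt pathway genes per comparison. These had the largest absolute log2 fold changes among genes called, with the same sign in each library and at least 20 CPM in either group. Genes with 3 UMIs or fewer in a group, summed over both libraries, get no fold. Members, groups and lists were chosen with earlier results of these data known. On simulated counts the test recovered 72% of genes changed 2-fold and 100% of genes changed 4-fold between Pi16 and other fibroblasts (17281 genes), and 57% and 88% between GFP-only and tdTomato-only Pi16 fibroblasts (12544 genes). Apart from these changes each gene had the same mean in all groups, and only genes above a minimum mean level were changed. The spread was the one estimated by the fit. The shares thus assume that this spread is right and do not cover the sparsest genes. Alternatives were a marker sum of 5, leaving out doublets, nuclei with at least 3 marker UMIs of a second class or nuclei with at least 2 UMIs of mesothelium markers, a reporter label from 2 UMIs, median-ratio or library-total scaling, DESeq2 1.42.0, no filter on low counts, no block and each library alone.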

Additional observations from a re-analysis of the deposited data

Results flagged for a closer look

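The reporter effect on Ror2 was called different between groups by a test of the difference itself, and the call depended on the setting. Its log2 difference between GFP-only and tdTomato-only nuclei was lower in other fibroblasts than in other muscle by an interaction of -1.18 ± 0.30 (edgeR quasi-likelihood test, adjusted p = 0.0391). This call was lost in 5 of 9 alternative settings (adjusted p up to 0.512), among them leaving out mesothelium marker nuclei. The size of the interaction was kept, at -1.71 to -1.09 over the 9 settings. The mesothelium markers given above moved with the label in other fibroblasts, and their part was not tested.

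Ratios of Female to Male CPM had intervals on opposite sides of 1 in different groups for 6 members. With 1 library per sex these differences between groups were not tested. Ror2 had a ratio of 1.45 in Pi16 fibroblasts and 0.616 in Lrrtm3 muscle. Axin2 had 1.4 in Pi16 fibroblasts and 0.616 in endothelium, where it lay below the immune nuclei. Dkk2 had 2.79 in Lrrtm3 muscle, from 36 Female UMIs and 9 Male UMIs. In other muscle it had 0.434, from 32 Female UMIs and 59 Male UMIs. Sfrp1 had 1.04 in endothelium and 0.387 in fat, where its level was at or below that of the immune nuclei. Ror1 had 1.12 in Pi16 fibroblasts and 0.866 in fat, where its level was close to that of free RNA. Tcf7l2 had 1.12 in Lrrtm3 muscle and 0.952 in endothelium.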

How the results depend on the processing

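Of 1170 member values under alternatives, 1121 counted as unchanged, 34 kept the direction and lost the call, 14 gained a call and 1 reversed. A change of direction counted as reversed only where the value was called in the main or the alternative setting. Values never called can therefore have changed direction among the 1121. Values of a single library, which have no test, counted as unchanged unless a called value changed direction. The reversed value was Dact2 in endothelium minus other muscle, at -0.0688 with nuclei of a second class left out. Leaving out mesothelium marker nuclei and library-total scaling were chosen after the data had been seen. In Lrrtm3 muscle minus other muscle 6 members were called, and 3 without called doublets, without nuclei of a second class or with no library block. Genes called there numbered 1627, and 3384 without the filter and 1025 with no block. Pi16 minus other fibroblasts had 1906 genes called, and 1117 without mesothelium marker nuclei.

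For GFP-only minus tdTomato-only in other muscle the 1 call was lost, leaving 0, without doublets, with DESeq2 and with no block. Genes called numbered 205, and 127 with a marker sum of 5, 83 with the reporter from 2 UMIs, 93 with DESeq2, 364 without the filter and 13 with no block. In other fibroblasts 0 members were called without doublets, without mesothelium marker nuclei, with the reporter from 2 UMIs, with library-total scaling, with DESeq2 and with no block, and genes called (571) were 106 without mesothelium marker nuclei, 265 with the reporter from 2 UMIs and 255 with no block. In Pi16 fibroblasts 2 members were called without doublets, without mesothelium marker nuclei and without the filter, and 0 with the reporter from 2 UMIs and with no block. Genes called there (111) were 13 with the reporter from 2 UMIs, 206 without the filter and 5 with no block. Fewer calls came with no block than with the pairing by library, and the cause was not tested.

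Between Female and Male, 1 member was at least 2-fold apart in Pi16 fibroblasts with 1 CPM added or after thinning, and 1 in other fibroblasts without the filter on low values, against 0. A single library gives no test. Calls of low genes rest on few UMIs, and those of Dkk2 in the fibroblast groups and Lrrtm3 muscle and of Dact2 in Lrrtm3 muscle on few nuclei. P-values over 2 libraries measure the spread between pools that also differ by sex.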

Other observations

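Within endothelium, nuclei with at least 2 UMIs of the lymphatic genes Prox1, Mmrn1 and Flt4 (142 Female, 250 Male, median 4050 UMIs in each library) had 11.1 Female and 56.1 Male CPM of Ror2. Endothelial nuclei with none of these UMIs (4698 Female, 6080 Male) had 47.4 and 63.6 CPM. The lymphatic level was thus below the rest in the Female library, where its 95% counting interval ran from 4.48 to 22.9 CPM, while in the Male library the intervals (43.6 to 71.0 CPM, against 60.2 to 67.1 CPM) overlapped. No test was run.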
